A study of Mus musculus with 10 samples.

Results

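The 126 genes described here were close to silent in control mouse livers and were read in livers whose hepatocytes had lost the histone variant H3.3. They were chosen by their own levels in these livers. Reads per gene were divided by the library total to give counts-per-million values (CPM), and a gene was a member when its mean was under 0.2 CPM over the 6 controls and over 1 CPM over the 4 H3.3 KO livers. Of 55421 genes in the count table, 33924 had a read in any liver and 197 passed both limits. A rule on symbols then left out 71 genes of large families, of which 66 were immunoglobulin genes. Since the levels chose the members, the difference between KO and control levels describes them and carries no test. Silence was not complete, since only 10 members had no read in any control. Another 20 had 1 to 3 reads over all 6 controls, and the rest had more.

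H3.3 is the variant of histone H3 that cells place in chromatin outside DNA replication, at active genes and regulatory elements through the chaperone HIRA and at repeats and other silent chromatin through ATRX and DAXX. A resting hepatocyte rarely copies its DNA and therefore depends on H3.3 for new H3. In the adult liver, most genes of other tissues, of the fetal liver and of germ cells are kept off, many of them within CpG methylation or Polycomb chromatin.

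All animals were male mice, injected behind the eye at 6 months of age and studied 3 weeks later. The study's text names C57BL/6 for its HIRA-floxed mice and does not state the strain of each group used here. The H3.3 KO group (KO 1 to KO 4) carried floxed alleles of H3f3a and H3f3b, the genes that encode H3.3, and received AAV8 Tbg-Cre. WT Cre controls (n = 3) were wild-type and received the same virus, and MCS controls (n = 3) carried the floxed alleles and received AAV8 Tbg-MCS, which has no Cre. Tbg drives Cre in hepatocytes, so the other cells of the liver kept both genes. One label disagreed with the others, since the genotype field of the floxed animals reads HIRA fl/fl while their titles give H3f3a and H3f3b. The titles were followed here. Whole-liver poly(A) RNA was sequenced, and in such bulk RNA a change in the number of cells of a type and a change in RNA per cell cannot be told apart.

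Total counts were 20862860 to 26096141 in the controls, 21485241 to 23619487 in KO 2 to KO 4 and 14998426 in KO 1, where 1 read is therefore worth more CPM. The targeted genes were lower in every KO liver than in every control. H3f3a had 59.2 ± 3.93 CPM (SD, n = 6) in controls and 18.8 ± 2.17 CPM (SD, n = 4) in KO, and H3f3b had 152 ± 17.0 and 54.6 ± 9.63 CPM. KO 1 had the least of both, 27.7% and 26.8% of the control mean, against 29.8% to 35.7% and 37.7% to 41.5% in KO 2 to KO 4. The hepatocyte genes Alb, Apoa1, Ttr and Hnf4a were all read in every liver, with summed levels of 97628 to 115391 CPM in controls and 77273 to 87238 CPM in KO. KO 1 stood apart from the other KO livers in many members, and values are therefore given liver by liver.

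Counted per liver, 9 to 32 members passed 0.2 CPM in a control and none passed 1 CPM. In KO 1, 116 members passed 0.2 CPM and 66 passed 1 CPM, and in KO 2 to KO 4, 124 or 125 passed 0.2 CPM and 108 to 113 passed 1 CPM. The summed level of all members was 9.60 to 14.3 CPM in controls. It was 426 CPM in KO 1, 803 CPM in KO 2, 953 CPM in KO 3 and 1064 CPM in KO 4. KO 1 thus held fewer members past 1 CPM and the lowest sum of the 4 KO livers.

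**Figure D1:**
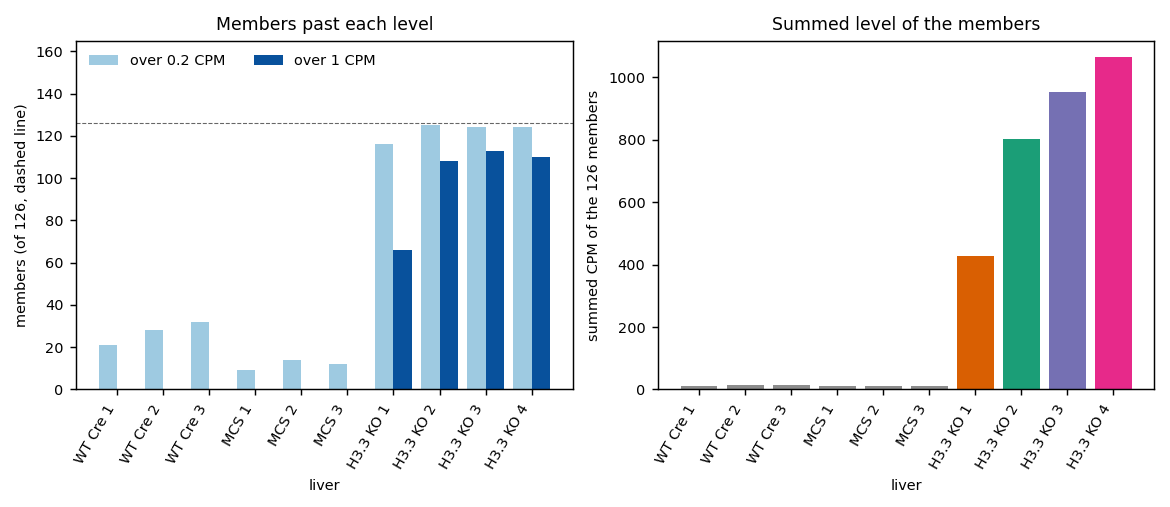
Members past each level and their summed level, by liver (x axis). Left, bars count the members over 0.2 CPM (light) and over 1 CPM (dark), and the dashed line marks all 126. Right, bars give the summed CPM, which was at most 14.3 in controls and 426 to 1064 in KO livers.

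The signal was uneven over genes. The median member had a mean KO level of 1.88 CPM, 67 members lay between 1 and 2 CPM and 16 lay over 10 CPM. The 3 most read members, Slc5a5, Igf2 and Cela2a, took 36.7% of the summed mean KO level. Per kilobase of annotated exon, which is the scale on which genes can be compared, S100g came first at 78.9 CPM per kb, followed by Slc5a5 at 50.8, Cela2a at 39.5, the antisense RNA Gm15287 at 29.9 and Bglap3 at 21.7 CPM per kb.

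All 4 KO livers passed 1 CPM for 49 members, 3 livers did for 51, 2 for 22 and 1 for 4. Every KO liver was over every control for 110 of the 126 members. Over all 22449 genes tested this held for 16.7%, a background from which nothing is read here because the rule used the same values. In 14 other members 3 KO livers exceeded the controls and KO 1 did not, and Krt20 and Sprr1a exceeded them in only 2 KO livers.

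Among transporters, calcium handlers and receptors (6 members), the leading gene was Slc5a5, the sodium iodide symporter by which thyroid follicle cells take up iodide. Its level was 0.47, 151, 144 and 299 CPM in KO 1 to KO 4. In controls the lowest, median and highest levels were 0, 0.0203 and 0.0479 CPM. The mean was 149 ± 122 CPM (SD, n = 4). No liver overlapped the controls, but KO 1 had 7 reads where KO 2 to KO 4 had 3096 to 7033. A promoter window (RefSeq, GRCm38.p6, the build mm10; 250 bases before to 50 after the annotated start) is shown for 8 members to set CpG-dense beside CpG-poor starts, with CpG dinucleotides and the letters TATAAA in capitals. The window of Slc5a5, chr8:70892708-70893007 on the minus strand, held 29 CpGs, and the ratio of observed to expected CpGs was 0.86.
Slc5a5: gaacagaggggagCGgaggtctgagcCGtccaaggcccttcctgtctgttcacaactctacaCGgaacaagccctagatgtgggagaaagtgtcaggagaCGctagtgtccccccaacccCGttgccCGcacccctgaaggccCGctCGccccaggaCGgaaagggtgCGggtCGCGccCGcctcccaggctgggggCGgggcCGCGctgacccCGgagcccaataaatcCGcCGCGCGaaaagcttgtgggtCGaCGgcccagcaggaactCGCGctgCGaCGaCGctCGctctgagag

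S100g, a small calcium-binding protein of intestine and kidney (calbindin D9k), had 0.53, 25.1, 69.7 and 56.2 CPM in KO 1 to KO 4, against 0 to 0.216 CPM in controls with a median of 0.0652 CPM. The mean was 37.9 ± 31.1 CPM (SD, n = 4), 387-fold over the control mean. As with Slc5a5, KO 1 was far below the other KO livers. The gene overlaps Ctps2 on the other strand, which had 7.77 CPM in controls and 11.5 CPM in KO. Its promoter window, chrX:162964550-162964849 on the minus strand, held 3 CpGs and TATAAA from the annotated start onward.
S100g: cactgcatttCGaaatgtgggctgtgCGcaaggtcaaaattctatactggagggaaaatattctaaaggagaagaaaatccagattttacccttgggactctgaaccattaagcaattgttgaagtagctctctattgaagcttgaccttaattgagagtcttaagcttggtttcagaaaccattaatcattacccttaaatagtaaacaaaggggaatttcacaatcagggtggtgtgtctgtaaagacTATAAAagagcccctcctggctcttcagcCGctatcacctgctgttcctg

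Slc24a4, a potassium-dependent sodium and calcium exchanger, had no read in any control and 2.80, 9.48, 8.84 and 2.81 CPM in KO 1 to KO 4. Against the level that 3 reads over the 6 controls would give, its mean was at least 286-fold higher. Its window, chr12:102128477-102128776 on the plus strand, held 14 CpGs. Sorcs3, a sorting receptor of neurons, ran the other way, with 5.80 CPM in KO 1 and 0.425 to 2.19 CPM in KO 2 to KO 4. The lysosomal channel Mcoln2 and the fatty acid receptor Ffar4 had means of 1.11 and 1.05 CPM and were lowest in KO 1.
Slc24a4: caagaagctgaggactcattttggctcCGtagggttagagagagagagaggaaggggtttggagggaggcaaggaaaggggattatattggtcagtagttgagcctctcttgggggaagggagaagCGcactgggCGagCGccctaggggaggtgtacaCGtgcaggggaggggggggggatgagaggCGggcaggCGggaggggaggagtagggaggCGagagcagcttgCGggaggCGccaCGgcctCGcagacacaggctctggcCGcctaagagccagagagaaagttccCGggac

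The secreted and signalling group was the largest of the protein-coding groups, with 18 members. Igf2, the fetal growth factor insulin-like growth factor 2, had 2.27, 78.7, 127 and 117 CPM in KO 1 to KO 4 and at most 0.0813 CPM in a control, with a control median of 0. Cela2a, a pancreatic elastase, had 0.33, 89.5, 65.6 and 117 CPM, against 0.0407 to 0.288 CPM in controls with a median of 0.163 CPM. The means were 81.1 ± 56.4 and 68.0 ± 49.7 CPM (SD, n = 4). KO 1 lay just above the highest control for Cela2a and well below the other KO livers for both genes. Cela2a overlaps Casp9 on the other strand, which had 21.3 CPM in controls and 26.2 CPM in KO. The Cela2a window, chr4:141825956-141826255 on the minus strand, held 3 CpGs.
Cela2a: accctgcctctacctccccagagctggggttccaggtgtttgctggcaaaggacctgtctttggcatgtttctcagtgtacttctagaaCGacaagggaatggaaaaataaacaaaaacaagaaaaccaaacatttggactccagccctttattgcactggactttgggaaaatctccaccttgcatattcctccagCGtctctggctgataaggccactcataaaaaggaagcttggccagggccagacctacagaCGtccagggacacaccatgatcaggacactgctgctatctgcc

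Bglap3, a relative of the bone protein osteocalcin, did not share this pattern, with 62.1, 62.0, 78.0 and 26.1 CPM in KO 1 to KO 4 and 0.0814 to 0.268 CPM in controls (median 0.184 CPM). The mean was 57.0 ± 22.0 CPM (SD, n = 4), and KO 1 was level with KO 2 here. Its near copies Bglap and Bglap2 had 4 and 0 reads over all 10 livers, so reads placed on this family fell almost wholly on Bglap3. Bmp8b, a bone morphogenetic protein, had 1.60, 4.91, 13.6 and 23.9 CPM, against 0 to 0.115 CPM in controls (median 0.0819 CPM). Its relative Bmp8a was read mainly in KO 4, at 2.76 CPM. The Bmp8b window, chr4:123104911-123105210 on the plus strand, was CpG dense with 23 CpGs.
Bmp8b: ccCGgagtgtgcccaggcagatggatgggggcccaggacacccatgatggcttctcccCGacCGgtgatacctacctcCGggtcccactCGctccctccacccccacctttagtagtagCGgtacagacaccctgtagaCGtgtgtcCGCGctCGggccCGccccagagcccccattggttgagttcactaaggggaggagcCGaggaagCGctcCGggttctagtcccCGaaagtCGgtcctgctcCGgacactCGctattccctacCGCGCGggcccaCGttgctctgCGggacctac

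Pappa2, a protease that frees insulin-like growth factors from their binding proteins, had no read in any control or in KO 1 and 1.65, 2.61 and 4.25 CPM in KO 2 to KO 4. Its mean over the 4 KO livers was at least 102-fold over the control floor, and a count of 0 in KO 1 allows up to 0.20 CPM at that library's depth. Wnt10a, a ligand of the Wnt pathway, was also at 0 in KO 1 and reached 4.85 CPM in KO 4 alone, with 0.25 and 0.61 CPM in KO 2 and KO 3. The Pappa2 window, chr1:158958126-158958425 on the minus strand, held 2 CpGs. It lies inside the gene as annotated for the counts, which begins at 158980490, and that outer start was not examined.
Pappa2: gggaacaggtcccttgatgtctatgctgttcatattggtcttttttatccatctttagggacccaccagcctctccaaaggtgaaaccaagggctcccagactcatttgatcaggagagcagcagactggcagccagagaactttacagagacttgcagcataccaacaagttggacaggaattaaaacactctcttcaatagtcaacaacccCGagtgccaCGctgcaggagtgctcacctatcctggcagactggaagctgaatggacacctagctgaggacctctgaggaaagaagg

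In the secreted and signalling group, 4 members were highest in KO 1, of which Dkk4 is given below. A1bg, a plasma glycoprotein of the immunoglobulin superfamily, had 42.0 CPM in KO 1 and 2.79, 3.26 and 2.59 CPM in KO 2 to KO 4, against 0 to 0.447 CPM in controls (median 0.115 CPM). KO 1 held 82.9% of its summed KO level, the largest share among members over 2 CPM. Pla2g2e, a secreted phospholipase, had 3.27 CPM in KO 1 and 0.28 to 0.30 CPM in the others. Csta2, a member of the stefin family of protease inhibitors, had 3.47 CPM in KO 1 and 0.85 to 1.69 CPM in the others. The A1bg window, chr15:60921221-60921520 on the minus strand, held 5 CpGs. It lies inside the gene as annotated for the counts, which begins at 60923012, and that outer start was not examined.
A1bg: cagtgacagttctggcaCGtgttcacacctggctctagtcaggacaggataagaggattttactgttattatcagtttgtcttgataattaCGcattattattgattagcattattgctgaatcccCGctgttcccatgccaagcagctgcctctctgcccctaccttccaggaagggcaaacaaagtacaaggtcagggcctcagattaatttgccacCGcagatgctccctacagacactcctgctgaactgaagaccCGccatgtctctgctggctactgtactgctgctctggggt

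Other members of the secreted and signalling group were read in all KO livers. Timp1, an inhibitor of matrix metalloproteases, had 2.13, 3.81, 2.42 and 3.87 CPM in KO 1 to KO 4. Dkk4, a Wnt inhibitor, had 4.53, 3.56, 3.58 and 1.36 CPM, and Wfdc12, a small protease inhibitor, had 2.07, 11.8, 6.93 and 6.46 CPM. Each was over every control in all 4 KO livers. Lgi3, Scgb1c1, Chrdl2, Sema4f, Gpc2 and Spink1 had mean KO levels of 1.17 to 2.08 CPM.

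Of 11 members of the cytoskeleton, cell adhesion and epithelia, Bspry, Radil, Cdhr2 and Inava were the most read. Bspry had 3.93, 12.8, 14.9 and 15.7 CPM in KO 1 to KO 4 and Cdhr2, a cadherin of the intestinal brush border, had 5.67, 8.89, 15.2 and 12.7 CPM. Inava, known from epithelial junctions and inflammatory bowel disease, had 2.20, 6.10, 7.91 and 14.4 CPM. Controls were at most 0.285, 0.407 and 0.203 CPM for these 3 genes, so that no KO liver overlapped them. Radil, an effector of the small GTPase Rap, was high in KO 2 and KO 3 (16.5 and 19.9 CPM) and lower in KO 1 and KO 4 (4.33 and 2.72 CPM).

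Krt20, a keratin of gut epithelium, was read almost solely in KO 1, at 5.93 CPM, against 0 in KO 2 and KO 3 and 0.085 CPM in KO 4. Sprr1a, a cornified envelope protein also known from injured neurons, had 2.27 and 3.10 CPM in KO 1 and KO 4 and 0.212 and 0.186 CPM in KO 2 and KO 3, the last 2 within the control range of 0 to 0.389 CPM. The mean KO level of Krt20 thus rested on KO 1 and that of Sprr1a on KO 1 and KO 4. Sybu, Cmya5, Krt79, Vcan and Ncam1 had mean KO levels of 1.03 to 2.32 CPM. The Krt20 window, chr11:99438104-99438403 on the minus strand, held 6 CpGs and TATAAA beginning 29 bases before the annotated start.
Krt20: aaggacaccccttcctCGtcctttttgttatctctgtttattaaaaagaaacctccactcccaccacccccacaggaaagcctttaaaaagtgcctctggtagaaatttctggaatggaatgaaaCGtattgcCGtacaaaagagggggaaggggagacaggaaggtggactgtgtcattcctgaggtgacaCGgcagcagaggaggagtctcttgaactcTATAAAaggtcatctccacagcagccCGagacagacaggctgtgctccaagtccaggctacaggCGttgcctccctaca

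**Figure D2:**
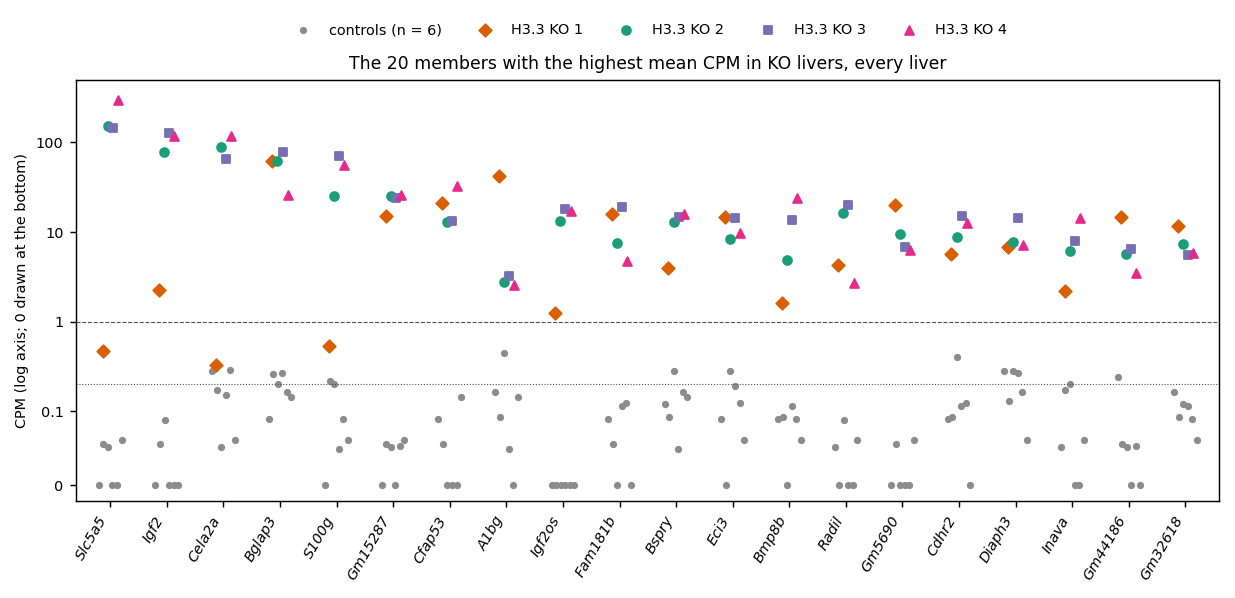
CPM (log axis, with 0 drawn at the bottom) of the 20 members with the highest mean KO level, in order, in each control (grey) and each KO liver (coloured). Dashed and dotted lines mark the limits of 1 and 0.2 CPM. Slc5a5, Cela2a and S100g were under 1 CPM in KO 1 and over 25 CPM in KO 2 to KO 4, and A1bg had 42.0 CPM in KO 1 and at most 3.26 CPM in the others.

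Germ cell and cilium genes (9 members) were led by Cfap53, a protein of motile cilia, with 21.3, 13.0, 13.1 and 32.2 CPM in KO 1 to KO 4 against at most 0.144 CPM in a control. Catsperg2, a subunit of the sperm calcium channel, had 9.40, 3.73, 6.56 and 1.11 CPM, highest in KO 1. Zan, the sperm protein zonadhesin, had 0.40, 4.28, 6.80 and 4.12 CPM, lowest in KO 1. Zan overlaps Ephb4 on the other strand, which had 18.8 CPM in controls and 40.7 CPM in KO. Tcfl5 and Stag3, a spermatogenesis regulator and a meiotic cohesin subunit, had mean KO levels of 3.36 and 3.19 CPM, and Nanos1, Ybx2, Fank1 and Maats1 of 1.26 to 1.97 CPM. The germline list, made of other genes, held none of them. KO was compared with all 6 controls by edgeR's quasi-likelihood test, and a gene was called at an adjusted p under 0.05 and a log2 fold change over 1 in size. Of the 8 tested genes of the list, 2 were called higher and 2 lower, where 12.9% of all genes tested were called higher and 5.79% lower.

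Metabolic enzymes (7 members) included Eci3, an enoyl-CoA isomerase of fatty acid oxidation, with 14.7, 8.30, 14.3 and 9.70 CPM in KO 1 to KO 4. Akr1b7, an aldo-keto reductase, had 0.40, 5.76, 11.0 and 10.2 CPM, and Fbp2, the muscle form of fructose bisphosphatase, had 2.87, 3.68, 5.40 and 7.48 CPM. All livers of these 3 genes were over the controls, which reached 0.285, 0.244 and 0.325 CPM. Aldh1a2, which makes retinoic acid, and the fatty acid binding protein Fabp12 were within the control range in KO 1 (0.133 and 0.0667 CPM) and at 1.02 to 2.04 CPM in KO 2 to KO 4. Got1l1 and Ak1 had mean levels of 1.93 and 1.09 CPM.

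The 6 transcription factors and RNA-binding proteins were all lowest in KO 1. KO 1 was also lowest in 70.6% of all protein-coding members and in 51.2% of all protein-coding genes over 1 CPM. Snai3, a Snail-family zinc finger, had 0.80, 1.52, 3.26 and 14.8 CPM in KO 1 to KO 4, with 72.6% of its summed level in KO 4. Igf2bp3, an oncofetal protein that binds Igf2 and other mRNAs, had 0.20, 1.35, 1.58 and 1.23 CPM. In KO 1 it lay within the control range, which reached 0.206 CPM. Egr2 and Nr4a3, immediate-early factors, had mean levels of 1.99 and 1.13 CPM. Samd11 and Zscan18 had 1.30 and 1.04 CPM.

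The 6 genes of DNA replication and mitosis were also all lowest in KO 1 and all over every control in each KO liver. The share lowest in KO 1 was 70.6% over all protein-coding members. Diaph3, a formin of cell division, had 6.87, 7.75, 14.4 and 7.14 CPM in KO 1 to KO 4. The replication factors Cdc6 and Clspn had means of 1.15 and 1.24 CPM, the kinetochore gene Kntc1 1.28 CPM, Rad51ap1, which aids strand exchange, 1.02 CPM and Pimreg 1.00 CPM. Their controls were not silent, with 20 to 29 reads over the 6 livers. Of the other 47 tested genes of the cell cycle list, 34 were called higher in KO and none lower, beside 12.9% and 5.79% of all genes, although the summed level of the list was 132 to 258 CPM in controls and 188 to 240 CPM in KO, with overlap.

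Immune genes numbered 14, and KO 1 was lowest in 12 of them and highest in none. Over all protein-coding members KO 1 was lowest in 70.6% and highest in 11.8%, and over all protein-coding genes above 1 CPM in 51.2% and 24.7%. Acod1, which makes itaconate in activated macrophages, had 0.73, 10.2, 5.77 and 2.51 CPM in KO 1 to KO 4, and the pattern receptor Clec4e had 0.60, 5.50, 3.17 and 1.45 CPM. Both were highest in KO 2. Gpnmb, a protein of lipid-laden macrophages, had 3.13, 3.60, 2.65 and 7.06 CPM. The T cell receptors Tigit and Pdcd1 had no read in KO 1 and 1.30 to 2.16 and 0.838 to 2.17 CPM in KO 2 to KO 4. Cd5 and Cd6, neighbours on chromosome 19, and the cytotoxic protease Gzmb had mean levels of 1.25, 1.14 and 1.64 CPM. The others, H2-M2, Cd28, Chil3, Tlr9, Ly6f and Cd177, lay between 1.20 and 2.12 CPM.

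Marker lists of immune cells are given beside them, with members left out of the sums. The summed level of the T and NK cell list was 9.56 to 15.98 CPM in controls, 11.7 CPM in KO 1 and 43.2, 28.0 and 44.0 CPM in KO 2 to KO 4. The macrophage and dendritic cell list had 119 to 162 CPM in controls and 208, 359, 434 and 536 CPM in KO 1 to KO 4. It was highest in KO 4, as were the members Gpnmb (7.06 CPM) and Tlr9 (2.55 CPM). Acod1 and Clec4e were lower in KO 4 than in KO 2 and KO 3. The neutrophil and mast cell list had 4.10 to 13.7 CPM in controls and 7.60, 33.7, 25.5 and 20.03 CPM in KO, with KO 2 highest as for Acod1 and Clec4e. KO 1 was inside the control range for the T cell and neutrophil lists. The part of these cells in the levels of the members was not tested.

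The same was asked of the tissues in which the leading members are best known, with marker genes chosen after the members' levels were seen. Thyroid genes did not accompany Slc5a5: Tg, Tshr, Nkx2-1, Foxe1 and Pax8 summed to 0.0407 to 0.345 CPM in controls and 0.0667 to 0.383 CPM in KO, and Tshr had no read at all. Of 10 pancreatic acinar genes beside Cela2a, Prss2 and Amy2a5 were at 0 in all 10 livers. Cela3b, Cpa1, Cpb1, Ctrb1 and Cel had 1 to 4 reads over all livers. Pnlip had 10 reads and Ctrl had 0.381 CPM in controls and 0.462 CPM in KO. Cela1 was the only one read well, at 17.3 ± 11.1 CPM (SD, n = 6) in controls and 44.4 ± 15.1 CPM (SD, n = 4) in KO (log2 fold change 1.13, SE 0.55, adjusted p = 0.142, edgeR's quasi-likelihood test). Its controls lay apart, at 5.74 to 8.77 CPM in WT Cre and 26.0 to 28.9 CPM in MCS (adjusted p = 0.0045 between them, same test), and KO 1 at 24.0025 CPM was below every MCS control. Outside this set, the pancreatic protease gene Ctrc overlaps Cela2a on the same strand. Ctrc had no read in controls and 0.109 CPM in KO and was called higher (log2 fold change 4.37, SE 1.17, adjusted p = 0.0197, same test). Beside Bglap3, the osteoblast genes Ibsp, Sp7 and Dmp1 had 0, 1 and 4 reads over all livers. Runx2 rose from 0.134 to 0.808 CPM and the collagen gene Col1a1, also made by stellate cells, from 6.72 to 67.0 CPM. For S100g, the intestinal gene Cdx2 was at 0 and Trpv5, Trpv6 and Lct had 2, 5 and 8 reads, whereas the vitamin D receptor Vdr rose from 0.0280 to 0.373 CPM and Vil1, the brush border protein villin, had 0.292 ± 0.136 CPM in controls (SD, n = 6) and 2.86 ± 1.22 CPM in KO (SD, n = 4; log2 fold change 3.08, SE 0.37, adjusted p = 5.5e-05, same test). The part of such cells in the members' levels was not tested.

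Members of no assigned role (8) included Fam181b, with 16.002, 7.58, 19.2 and 4.76 CPM in KO 1 to KO 4, and Prrg4, with 6.38 CPM in KO 4 and 0.72 to 1.02 CPM in the others. Phlda2, an imprinted gene that limits placental growth, had 3.20, 7.20, 10.2 and 7.91 CPM. Fam181b alternated, high in KO 1 and KO 3 and lower in KO 2 and KO 4. Tmem54, Tmem154, 2210011C24Rik, Gm49394 and Gm12185 had mean levels of 1.04 to 2.64 CPM.

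The 41 members that do not encode a protein were 17 lincRNAs, 13 pseudogenes, 6 antisense RNAs, 3 transcripts that the annotation holds as provisional (TEC) and 2 processed transcripts. LincRNAs made up 13.5% of the members and 4.04% of all genes tested, pseudogenes 10.3% and 14.3%, and antisense RNAs 4.76% and 4.78%. Protein-coding genes were 67.5% of the members and 66.6% of the genes tested. The genes tested were not held to a low control level as the members were, so these shares do not compare like with like. Gm15287, an antisense RNA on chromosome 13 that overlaps no other gene, had the smallest share of its summed KO level in its highest liver (28.5%) among members over 2 CPM, with 15.1, 25.1, 24.2 and 25.6 CPM in KO 1 to KO 4 and at most 0.0479 CPM in a control. KO 1 was its lowest liver. The pseudogenes Gm17430 and Speer6-ps1 came next by this share (29.1% and 30.1%), with 2.33, 1.74, 1.77 and 2.17 CPM and 3.33, 2.96, 3.77 and 4.34 CPM. Gm17430 overlaps Colec12 on the other strand, which had 40.1 CPM in controls and 7.90 CPM in KO.

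Several noncoding members were highest in KO 1. Gm5690, a processed pseudogene 41.6 kb from Cfap53, had 20.002, 9.44, 6.89 and 6.34 CPM in KO 1 to KO 4. Gm44186 and Gm44172, which lie 4.31 kb apart on chromosome 6, had 14.7, 5.76, 6.42 and 3.49 CPM and 12.4, 4.61, 7.96 and 2.21 CPM. The lincRNA Gm32618 had 11.6, 7.32, 5.49 and 5.78 CPM. BC026762 had 7.00, 1.52, 2.28 and 0.425 CPM and lies over Cyp2b27-ps, which had no read in controls and a mean of 2.13 CPM in KO. The mean KO level of all 41 ran from 1.04 to 22.5 CPM, with a median of 2.02 CPM. Reads of pseudogenes and of genes that share sequence with another copy are uncertain, since the counting of reads with several matches is not given in the sources used here.

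Overlap with another annotated gene was common. Of the 126 members, 56 overlapped another gene, 17 of them on the same strand and 48 on the other strand. The setting for strand in the counting is not given in the sources used here, so reads of overlapping genes cannot be told apart. The antisense RNA Gm47040 had a mean of 2.31 CPM in KO while Fst, the follistatin gene on the other strand, had 2.94 CPM in controls and 36.0 CPM in KO. Gm12406 had 1.27 CPM in KO while Enho on the other strand had 5.84 and 38.6 CPM. The other 70 members overlapped no gene.

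KO 1 was the lowest KO liver in 75 of the 126 members (59.5%), the highest in 28 (22.2%) and between the others in 23. Of all 13520 genes with a mean KO level over 1 CPM, it was lowest in 49.4% and highest in 25.8%. The split differed by type of gene, both in the members and in all genes over 1 CPM. For KO 1 lowest, the noncoding members were near the share of all such genes. Among protein-coding members KO 1 was lowest in 60 of 85 (70.6%) and highest in 10 (11.8%), where all protein-coding genes over 1 CPM gave 51.2% and 24.7%. Among the members that encode no protein it was lowest in 15 of 41 (36.6%) and highest in 18 (43.9%), where all such genes over 1 CPM gave 35.3% and 33.9%. These shares describe 1 liver against 3 and carry no test.

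In 20 members KO 1 had under 10% of the mean of KO 2 to KO 4. Besides Slc5a5, Igf2, Cela2a, S100g, Igf2os and Akr1b7, each with over 8 CPM in the mean of KO 2 to KO 4, these were genes such as Zan, Pappa2, Chil3, Wnt10a, Tigit and Pdcd1. In 10 members KO 1 had more than 2 times the level of each other KO liver, among them A1bg, Gm5690, Gm44186, C030010L15Rik, Sorcs3 and Krt20. In 20 members a single liver held over 50% of the summed KO level. Without KO 1, the rule would take 161 genes, 122 of them among the 126.

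**Figure D3:**
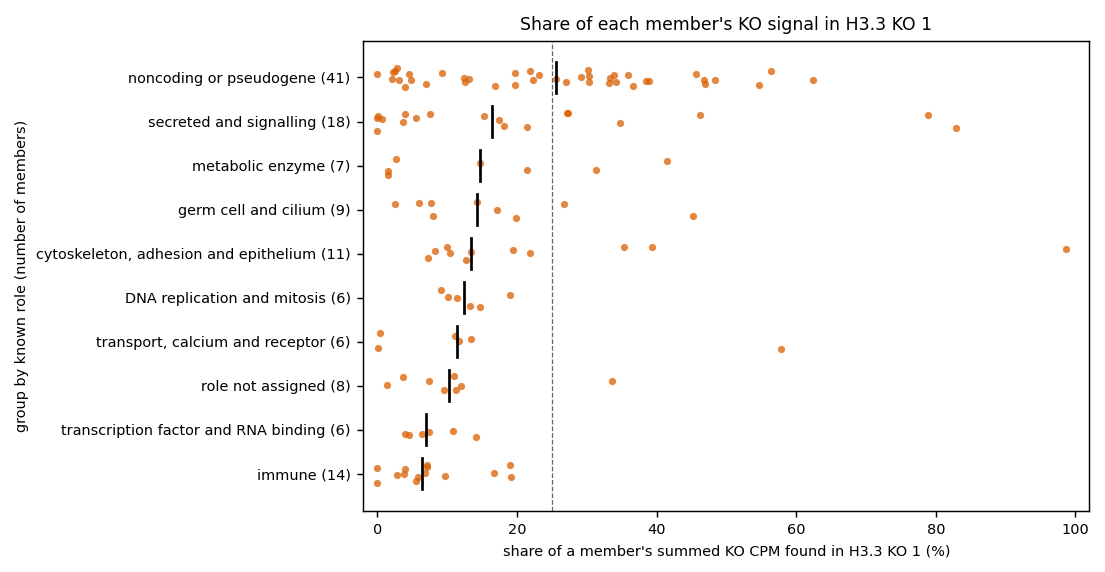
Share of each member's summed KO level that was found in KO 1 (x axis, in percent), by known role (y axis, number of members in brackets). Points are members, black bars are group medians and the dashed line at 25% is where 4 equal livers would lie. The median over all members was 12.9%, the median of the immune group was 6.33% and that of the noncoding group was 25.6%. Over all genes with a mean KO level over 1 CPM, the median was 22.8% for protein-coding genes and 24.7% for the others.

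Igf2, Igf2os, Gm49394, Phlda2 and Mirg lie in 3 imprinted loci, whose genes were laid out together after their levels had been seen. No list of imprinted genes was tested. In an imprinted gene only the allele from 1 parent is active. The locus of Igf2 and H19 on chromosome 7 held 3 members on overlapping coordinates. These were Igf2 (142650766 to 142666816, minus strand), the antisense RNA Igf2os (142659693 to 142670356, plus strand) and the predicted gene Gm49394 (142650769 to 142669942, minus strand). Igf2os had no read in controls and 1.27, 13.3, 18.1 and 17.2 CPM in KO 1 to KO 4, at least 596-fold over the control floor in the mean. Gm49394 had no read in controls and 0.0667, 0.847, 2.28 and 1.49 CPM. The 3 genes each had KO 1 lowest and KO 3 highest. How reads were assigned where they overlap is not given in the sources used here.

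H19, the maternally expressed RNA of this locus, was not called, with 0.392 ± 0.175 CPM (SD, n = 6) in controls and 0.692 ± 0.515 CPM (SD, n = 4) in KO (log2 fold change 0.58, SE 0.49, adjusted p = 0.386, edgeR's quasi-likelihood test). Ins2 had no read in any liver. Farther along chromosome 7, beside the member Phlda2, Cdkn1c rose from 1.38 ± 0.36 to 5.66 ± 1.16 CPM (log2 fold change 1.86, SE 0.21, adjusted p = 3.0e-05, same test). Slc22a18 had 109 ± 11.3 CPM in controls and 231 ± 10.2 CPM in KO, and its log2 fold change of 0.91 (SE 0.08, adjusted p = 8.5e-06, same test) stayed under the limit of 1 for a call.

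At the third locus, on chromosome 12, the member Mirg had 0.80, 6.48, 9.03 and 4.21 CPM in KO 1 to KO 4 and at most 0.165 CPM in a control. It is a maternally expressed noncoding RNA that hosts microRNAs. Meg3 and Rian, the maternally expressed RNAs upstream of it, were no members because of their control levels. Meg3 had 11.7, 89.8, 126 and 63.3 CPM in KO and 2.55 ± 1.74 CPM (SD, n = 6) in controls (log2 fold change 4.61, SE 0.75, adjusted p = 0.0016, edgeR's quasi-likelihood test). Rian had 6.60, 50.1, 70.4 and 41.2 CPM in KO and 0.856 ± 0.573 CPM (SD, n = 6) in controls (log2 fold change 5.41, SE 0.69, adjusted p = 4.0e-04, same test). Of the paternally expressed genes of the locus, Rtl1 had 1 read over all controls and 0, 0.339, 0.605 and 0.298 CPM in KO 1 to KO 4. It was called (log2 fold change 4.57, SE 0.93, adjusted p = 0.0020, same test). Rtl1 lies on the other strand from Meg3 and Rian. Since the strand setting of the counting is not given, the strand of its reads is not known. Dlk1 had 0.0388 CPM in controls and 0.245 CPM in KO and was not called (log2 fold change 2.13, SE 0.91, adjusted p = 0.0829, same test). The controls lay apart by group, with Meg3 at 0.605 to 1.59 CPM in WT Cre and 3.64 to 4.86 CPM in MCS controls and Rian at 0.326 to 0.488 and 0.881 to 1.61 CPM, although neither was called between them (adjusted p = 0.434 and 0.574, edgeR's quasi-likelihood test). Meg3, Rian and Mirg were each lowest in KO 1 and highest in KO 3.

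**Figure D4:**
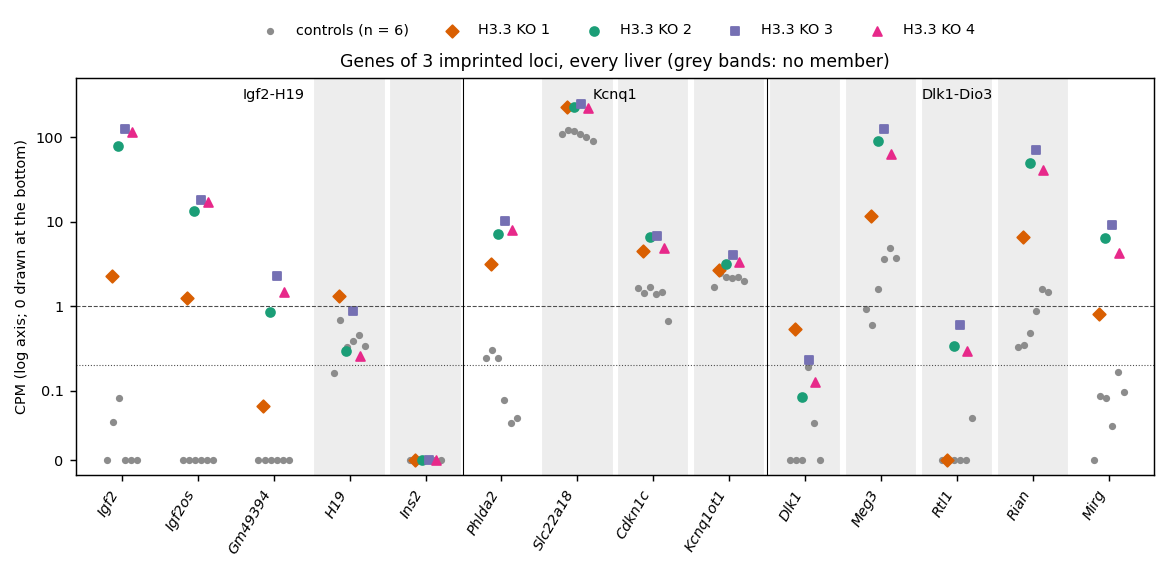
CPM (log axis, with 0 drawn at the bottom) of the genes of 3 imprinted loci in each control (grey) and KO liver (coloured). Grey bands mark genes that are no member. Igf2, Igf2os, Meg3, Rian and Mirg were lowest in KO 1 among the KO livers, H19 was at most 1.33 CPM in any liver and Ins2 was at 0.

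Gene lists made of other genes place the members beside their pathways. Of 22449 genes tested, 2899 (12.9%) were called higher and 1300 lower. All 126 members were called higher, with a median log2 fold change of 4.89 against -0.003 for all genes, which follows from how they were chosen. Of all calls 69.0% were higher, and 79.3% were when libraries were scaled by their totals alone, a setting that put the median gene at a log2 fold change of 0.17. The 16 lists held few members. The T and NK cell list held Cd5, Cd6, Gzmb and Pdcd1, the macrophage and dendritic cell list Gpnmb and Clec4e, the fetal and oncofetal list Igf2 and Igf2bp3, and the keratin list Krt20 and Sprr1a. The cell cycle, stellate cell and neuronal lists held Clspn, Timp1 and Ncam1.

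Leaving out members, the T and NK cell list had 17 of 20 tested genes called higher, the macrophage and dendritic cell list 15 of 18 with 1 lower, and the stellate cell and fibroblast list 14 of 18. The B cell and plasma cell list had 10 of 19, the p53 and senescence list 9 of 20, the neutrophil and mast cell list 4 of 10 and the cholangiocyte list 4 of 18. The fetal and oncofetal list had 3 of 15, namely Gpc3, Meg3 and Cd24a, while Afp was not called. The keratin list had 3 of 5, the neuronal list 3 of 12, the muscle list 3 of 11 with 1 lower, and the developmental transcription factor list 1 of 16 with 1 lower. No endothelial gene of 12 was called, although the summed level of that list was 162 to 199 CPM in controls and 229 to 397 CPM in KO. Of 7 erythroid genes 1 was called lower. In the neuronal list Nefm, a neurofilament, had 0.014 CPM in controls and 0.617 CPM in KO (log2 fold change 4.85, SE 0.68, adjusted p = 1.6e-04, edgeR's quasi-likelihood test), whereas Snap25 and Stmn2 had mean levels under 0.03 CPM in both groups.

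The nearest genes to either side of the members are not chosen by the rule. Within 50 kb lay 158 tested genes that are no member, of which 43 (27.2%) were called higher and 9 lower. Within 10 kb lay 72, of which 26 (36.1%) were called higher and 1 lower. The share over all genes was 12.9%. Under edgeR's stricter filter on low counts (filterByExpr), 26 of 109 (23.9%) within 50 kb and 14 of 48 (29.2%) within 10 kb were called higher. On the same strand and upstream of a member within 50 kb, 11 of 46 (23.9%) were called higher. The 126 members themselves formed 9 pairs within 100 kb, which held 15 members.

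Dnaic1, a dynein of motile cilia 1.22 kb from Gm12406 on the same strand, had 0.60, 37.9, 35.5 and 23.2 CPM in KO 1 to KO 4 and 0.215 ± 0.205 CPM (SD, n = 6) in controls (log2 fold change 6.60, SE 1.00, adjusted p = 0.0010, edgeR's quasi-likelihood test). It kept the order in which KO 1 was lowest. Crlf2, the receptor of the cytokine TSLP, 0.553 kb from Gm8493 on the same strand, had 31.6 to 35.2 CPM in KO and 6.39 ± 0.87 CPM (SD, n = 6) in controls (log2 fold change 2.23, SE 0.11, adjusted p = 3.5e-08, same test). Mroh3, 0.703 kb from Inava, had no read in controls and 0, 0.423, 0.931 and 1.87 CPM in KO, in the same order as Inava. 1700048O20Rik beside Gm47115 rose from 0.394 to 5.76 CPM, Gm5431 beside Gm12185 from 0.497 to 2.79 CPM, Krt4 beside Krt79 from 0.146 to 0.774 CPM, Ten1 beside Cdk3 from 1.77 to 6.19 CPM and Twf2 beside Tlr9 from 2.48 to 6.22 CPM. The other called neighbours on the same strand within 10 kb, Gm20735, Kcna3, Gm12405, Gm8616, Gm19345 and Gm47220, were under 1 CPM in the mean of either group.

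**Figure D5:**
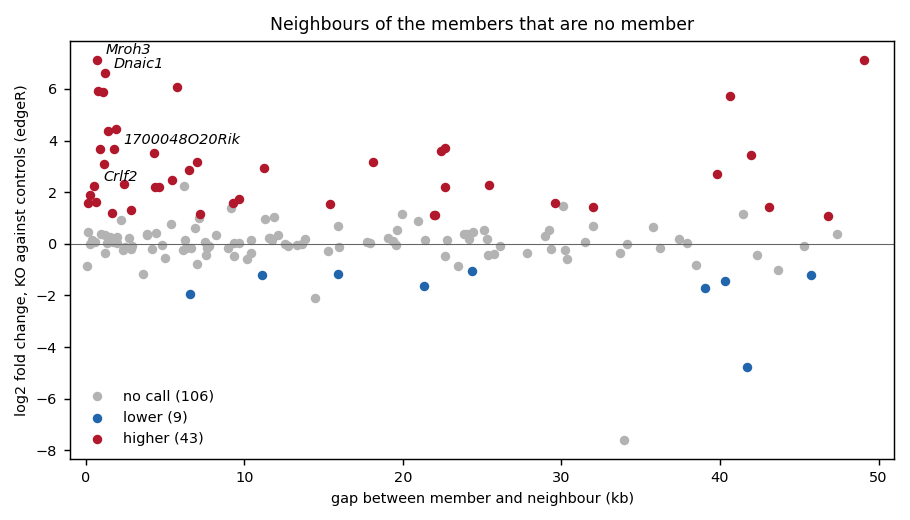
Log2 fold change of KO against controls (y axis, edgeR) of the 158 tested neighbours, by their gap to the member in kb (x axis). Red points are called higher (43), blue points lower (9) and grey points not called. Of the neighbours within 10 kb, 26 of 72 were called higher.

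Promoter windows were found in RefSeq for 78 of the 126 members (98 windows) and for 27025 genes in all (32851 windows). Windows with a ratio of observed to expected CpGs over 0.6 were 37.8% of the members' and 35.8% of all, and the median GC content was 56.0% and 52.7%. Counting either strand, TATAAA was in 16.3% of the members' windows and 13.6% of all, CCAAT in 44.9% and 37.4%, the GC box GGGCGG in 36.7% and 35.7%, and TTTGAA, the core of the cell cycle CHR element, in 12.2% and 17.9%. The AP-1 motif TGACTCA was in 11 of 98 (11.2%) and 5.20%, and the E-box CACGTG in 11.2% and 7.15%. Windows with TGACTCA belonged to Sprr1a, Gzmb, Gpnmb, Tlr9, Fbp2, Tmem54, Ak1, Pla2g2e, C030010L15Rik and Gm8493. The members' windows thus ranged from CpG-dense ones such as that of Slc5a5 to ones with hardly a CpG such as the inner RefSeq start of Pappa2.

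The controls were compared with each other, a contrast the rule did not use. Between WT Cre and MCS controls 144 genes were called in either direction, 0.641% of those tested. No member was among them by edgeR or DESeq2, but nothing is read from this, since so few control reads left little room for a call. The count of genes was not stable, with 66 to 259 when 1 liver was left out, lowest without WT Cre 3 and highest without KO 1, and 314 by DESeq2. At an unadjusted p under 0.05 by edgeR, 9 members (7.14%) and 10.7% of all genes tested differed. The mean was higher in WT Cre controls for 73 of 126 members (57.9%) and for 66.2% of all genes. In the WT Cre controls 21 to 32 members passed 0.2 CPM, against 9 to 14 in the MCS controls.

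Just inside the control limit lay Ncam1, a neural cell adhesion molecule (0.199 CPM), Diaph3 (0.197), Gm12185 (0.195) and Zscan18 (0.193 CPM). Just outside lay Omp (0.2003), Ccdc114 (0.2009), Chst11 (0.201) and Mzb1 (0.203 CPM), with mean KO levels of 5.06, 1.81, 1.29 and 2.57 CPM. Just inside the KO limit lay Pimreg (1.002), Rad51ap1 (1.019), Ncam1 (1.032) and Pla2g2e (1.035 CPM), and just outside Ctla4 (0.998), Obp2b (0.9934), Troap (0.9934) and Bcl2a1a (0.990 CPM). The limits therefore cut through a continuous range of levels. With the limits swapped, a control mean over 1 CPM and a KO mean under 0.2 CPM, 21 genes would be taken.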

How the data were processed

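Whole-liver poly(A) RNA of 4 H3.3 KO, 3 WT Cre and 3 MCS mice was sequenced from directional libraries. Per the study's methods, reads were trimmed by the authors, mapped to mm10 with STAR and counted per gene with HOMER, whereas the submitters' processing notes list STAR, HTSeq and Cufflinks. The deposited counts are whole reads per gene without normalization, and the deposited FPKM table was not used. Control columns were matched to WT Cre or MCS only by the number in the library names. Replicates are numbered male mice, and p-values measure the spread between these libraries. The variance between replicates was 10.3 to 96.7 times that of sampling noise, so none was a second sequencing of the same library. This does not tell whether libraries came from different livers.

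CPM used column totals. Genes with at least 10 summed counts (22449) were tested with edgeR 4.0.16 (R 4.3.3; TMM, robust quasi-likelihood F test, two-sided, Benjamini-Hochberg over all genes), and SE is the log2 fold change over the square root of F. The fit was tested on simulated data. Alternatives were DESeq2 1.42.0, other scalings and filters, other limits, a replicate block and leaving out each liver. Gene types and positions came from GENCODE M21, which held 55240 of 55421 identifiers. Members and lists were chosen with earlier results of these data known, and roles were assigned after levels were seen. Named were the 20 members with the highest mean KO CPM, list members, the 3 most even and most uneven members over 2 CPM, genes at the limits, genes of the Igf2 stem and called neighbours on the same strand within 10 kb. Other names were chosen after their values were seen.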

Additional observations from a re-analysis of the deposited data

Results flagged for a closer look

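Of 81 groups of livers over 41 named members, 12 had 1 liver far from the rest by Dixon's limit. Chance gives about 5% of groups, but the count cannot be read against it, since levels in these livers chose the members, and A1bg, Prrg4 and Gm15287 were also named for uneven or even KO levels. Among KO livers, KO 1 was far above the others for A1bg (42.0 CPM, next 3.26), Krt20 (5.93 CPM, next 0.085) and Pla2g2e (3.27 CPM, next 0.298), and far below them for Gm15287 (15.1 CPM, next 24.2). KO 3 stood out for Diaph3 (14.4 CPM, next 7.75) and KO 4 for Prrg4 (6.38 CPM, next 1.02). Among controls, WT Cre 3 stood out for A1bg (0.447 CPM) and Cdhr2 (0.407 CPM), WT Cre 1 for Gm44186 (0.244 CPM), WT Cre 2 for Sprr1a (0.389 CPM), MCS 1 for Pla2g2e (0.0383 CPM) and MCS 3 for Speer6-ps1 (0.0479 CPM). The last 2 were single reads.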

How the results depend on the processing

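The rule took 126 genes. It took 62 with a control limit of 0.1 CPM, 418 with 0.5 CPM, 59 with a KO limit of 2 CPM and 49 when every KO liver had to pass 1 CPM. Leaving out 1 liver gave 117 to 161 genes. On library sizes adjusted by TMM it took 111, all among the 126. Neighbours called higher were 43 within 50 kb and 26 within 10 kb. Under filterByExpr, which tested fewer genes, they were 26 and 14, and with 1 liver left out those within 50 kb were 32 to 44. Windows over a CpG ratio of 0.75 were 27.6%.

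Between WT Cre and MCS controls, 144 genes were called, 221 with a replicate block and 314 by DESeq2, and the cause was not tested. With 1 liver left out the count was 66 to 259. It was 76, 78 and 66 without WT Cre 1, 2 and 3, 82 and 85 without MCS 2 and MCS 3, and 259 without KO 1. No member was called in any of these, where the limit on control levels left little room for a call.

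Same-numbered livers correlated at -0.085 to 0.176 in their deviations, and differently numbered livers at -0.199 to 0.196. No pairing by number was seen, but with so few livers per group this check cannot exclude it. With the replicate block, 2391 genes, 125 members, 32 neighbours and 105 list genes were called higher. With 1 liver left out, 2451 to 3111 genes, 124 or 125 members and 103 to 127 list genes were. DESeq2 called 2780 genes, and filterByExpr left 94 members to test. Over 61 named genes, 866 values kept their call and direction, 21 lost the call and 0 changed sign. The losses were in Krt20, Sprr1a, Pla2g2e, Gm20735, Mroh3 and Kcna3. Depth limits KO 1, where 3 reads are 0.20 CPM.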
